A study of Homo sapiens with 12 samples.

Results

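The E2F factors, cyclin E and cyclin-dependent kinase 2 (CDK2) were examined as 8 rows of a gene-level microarray table, out of 17710 rows in all. The rows were found by their Ensembl identifiers and not by their values, but the 8 genes were chosen with earlier results of these data known. They were ENSG00000101412_at (E2F1), ENSG00000007968_at (E2F2), ENSG00000112242_at (E2F3), ENSG00000165891_at (E2F7), ENSG00000129173_at (E2F8), ENSG00000105173_at (CCNE1, cyclin E1), ENSG00000175305_at (CCNE2, cyclin E2) and ENSG00000123374_at (CDK2). All 8 were present on all 12 arrays.

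E2F proteins are the transcription factors through which a cell commits to DNA replication. Before that commitment the retinoblastoma protein binds the activator factors E2F1, E2F2 and E2F3 and keeps their target genes quiet. Cyclin D with CDK4 or CDK6 phosphorylates that protein, the activators are set free, and they switch on cyclin E, which binds CDK2 and completes the phosphorylation. E2F7 and E2F8 are atypical members that bind DNA without a DP partner and repress the same genes later in the cycle, closing the loop. In myeloma, a cancer of plasma cells, this switch lies downstream of the D cyclins, whose genes are commonly deregulated.

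The cells were MM.1S, an established human multiple myeloma cell line, and no other line or patient material was part of these arrays. PIM447 is an inhibitor of the PIM kinases, pomalidomide is an immunomodulatory drug that redirects the cereblon ubiquitin ligase, and dexamethasone is a glucocorticoid. Untreated cells (Control) were compared with cells given PIM447 at 100 nM for 24 h (PIM), pomalidomide at 200 nM with dexamethasone at 5 nM for 15 h (Pd), or all of them at those doses for 10 h (PIM-Pd). Each group held 3 arrays from 3 independent experiments, and viability in the treated cells lay between 74% and 81%. Because the exposure differed between the treatments, drug and time cannot be told apart in any comparison between treated groups. No time is given for the untreated cells, so drug and time in culture cannot be separated with certainty in the differences from control. In these bulk samples, less of a transcript per cell and fewer cells in the phase that makes it cannot be told apart either.

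The values are log2 intensities after robust multi-array averaging (RMA), which puts the arrays on a common scale. Array medians lay between 4.81 and 4.89. Correlations between arrays of a group were between 0.987 and 0.993 over all rows, and PIM-Pd replicate 1 had the lowest weight of the 12 arrays when weights were estimated (0.607). Of the markers listed for plasma cells, the 3 that could be named were high: mean log2 values were 9.46 for IRF4, 8.58 for CD38 and 9.76 for SLAMF7, with IRF4 at the 97.4th percentile of the rows, CD38 at the 93.5th and SLAMF7 higher still, while the T cell marker CD3E was at 4.32, at the 41.1st percentile. The other markers of plasma cells, B cells, T cells, myeloid cells and stroma that were looked for could not be named in the table.

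E2F1 fell with Pd and with PIM-Pd, and CCNE1 and E2F2 fell with PIM-Pd. A row was called where limma, fitted to the whole table, gave a Benjamini-Hochberg adjusted p below 0.05. Against control, 0 of the 8 rows were called with PIM, 1 with Pd and 3 with PIM-Pd, all lower. Over the whole table the shares called were 0% with PIM, 5.42% with Pd and 9.44% with PIM-Pd, and the shares called lower were 1.94% with Pd and 5.02% with PIM-Pd. The median log2 difference of the 8 rows was -0.31 with PIM, -0.45 with Pd and -0.79 with PIM-Pd, beside medians of all rows between -0.0089 and 0.0099. E2F3 and E2F7 went the other way with Pd and PIM-Pd, with values above zero that did not pass the test.

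**Figure D1:**
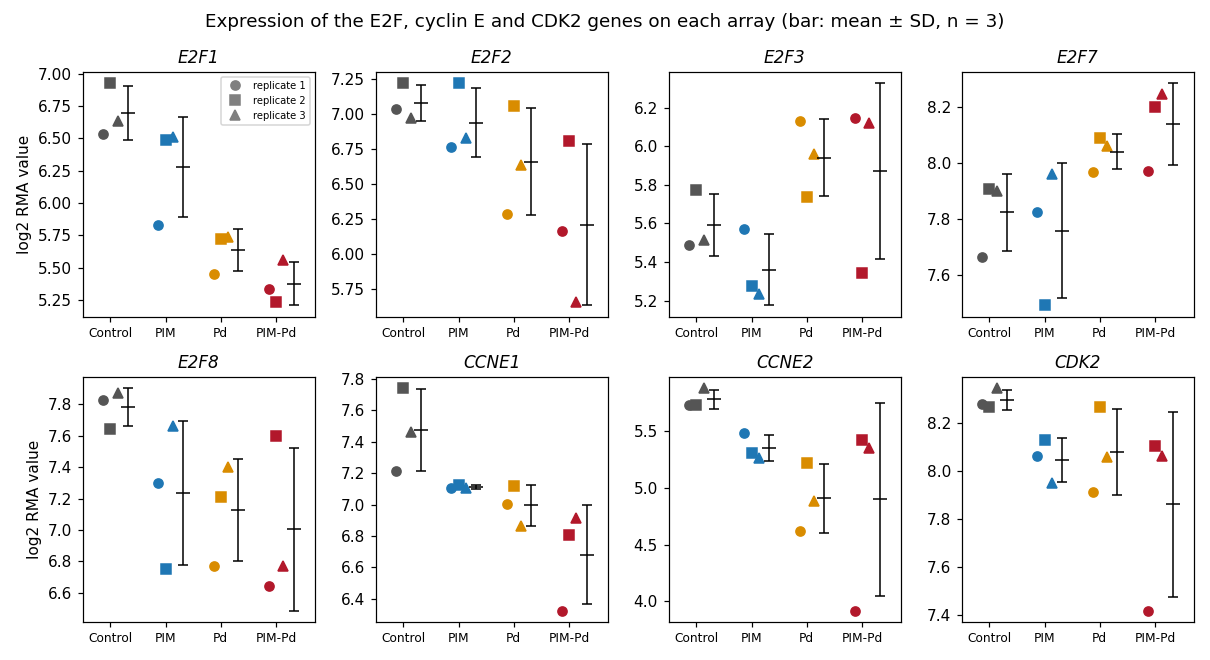
Log2 RMA value (vertical axis, a separate scale in each panel) of each of the 8 genes in the 12 arrays, by treatment group; symbols mark the replicate number and the black bar gives mean ± SD (n = 3). For E2F1 the Pd and PIM-Pd arrays lie between 5.23 and 5.74, all below the lowest control array at 6.53, whereas for E2F7 the PIM-Pd arrays, from 7.97 to 8.25, lie above the highest control array at 7.91.

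Among the activators, E2F1 gave the largest differences. Its log2 values were 6.53, 6.93 and 6.63 in the control arrays, 5.83, 6.49 and 6.51 with PIM, 5.45, 5.72 and 5.74 with Pd, and 5.34, 5.23 and 5.56 with PIM-Pd. Every treated array lay below every control array, and the PIM-Pd arrays overlapped only with the Pd arrays. With PIM-Pd, E2F1 fell by 1.32 on the log2 scale (SE 0.175, n = 3 per group, limma adjusted p = 0.000301), which is 2.49-fold, and ranked 25th from the lowest of all differences in the table. With Pd it fell by 1.06 (SE 0.175, limma adjusted p = 0.00222), a 2.08-fold change that ranked 23rd. The decrease was seen in 3 of 3 experiments for both treatments, with differences from the control of the same experiment of -1.08, -1.21 and -0.89 for Pd and -1.19, -1.69 and -1.07 for PIM-Pd.

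PIM alone gave a smaller E2F1 difference of -0.42 (95% confidence interval -0.79 to -0.047, limma adjusted p = 0.775), so the groups did not overlap but the call was not made. Without PIM replicate 1, the array at 5.83, that difference was -0.20. The order of the 4 group means was Control at 6.70 ± 0.21, PIM at 6.28 ± 0.39, Pd at 5.64 ± 0.16 and PIM-Pd at 5.38 ± 0.17 (log2, SD, n = 3). No pair of neighbours in that order passed the test. For Pd against PIM, a comparison in which 3.39% of all rows were called, the E2F1 difference was -0.64 with a limma adjusted p of 0.063, and with the experiment as a replicate block it was called (adjusted p = 0.0243).

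The promoter of E2F1 is a textbook example of a gene that E2F proteins regulate themselves, so the bases just before the start of the 3 called genes are shown. They come from RefSeq windows on GRCh38.p14, written 5′ to 3′ on the strand of the gene, for E2F1 at chr20:33686386-33686485 (minus strand), E2F2 at chr1:23531234-23531333 (minus strand) and CCNE1 at chr19:29811891-29811990 (plus strand). Capitals mark a match, on either strand, to 1 of 4 spellings of the E2F site (TTTCCCGC, TTTCGCGC, TTTGCCGC or TTTGGCGC).
E2F1: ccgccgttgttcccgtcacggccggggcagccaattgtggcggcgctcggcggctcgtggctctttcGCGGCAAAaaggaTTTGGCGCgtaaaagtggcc
E2F2: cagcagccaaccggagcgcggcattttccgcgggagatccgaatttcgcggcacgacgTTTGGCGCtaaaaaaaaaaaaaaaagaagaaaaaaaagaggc
CCNE1: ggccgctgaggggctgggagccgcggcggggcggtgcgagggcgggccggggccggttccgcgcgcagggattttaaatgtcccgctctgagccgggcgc

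E2F1 held 2 matches, which do not overlap, with first bases at positions -33 and -20, where -1 is the base just before the gene's start. E2F2 held 1 match at position -42, in the same letters as the second match of E2F1. The full windows run from 250 bases before to 50 after a start, and 5 of the 8 genes had such windows: E2F1, E2F2, E2F3, E2F7 and CCNE1. Of these, E2F3 also held 1 match, at position -53 of its first window and none in its second, while the windows of E2F7 and CCNE1 held none of the 4 spellings. Among all 35116 windows, 3.31% held a match and 0.145% held at least 2. A match is only a run of letters, and no binding was measured in these samples.

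E2F2, the second activator, stood at 7.04, 7.22 and 6.97 in control, 6.77, 7.22 and 6.82 with PIM, 6.29, 7.05 and 6.64 with Pd, and 6.16, 6.80 and 5.66 with PIM-Pd. The control arrays were tight and the PIM-Pd arrays wide, with an SD of 0.57, yet all 3 lay below the control arrays. With PIM-Pd, E2F2 was lower than control by 0.87 (SE 0.242, limma adjusted p = 0.0351, 1.82-fold) and was called. This call rests on few arrays: with PIM-Pd replicate 3, PIM-Pd replicate 1 or any control array left out, the adjusted p rose to between 0.0728 and 0.156, and the difference without PIM-Pd replicate 3 was -0.59. With only the control and PIM-Pd arrays in the fit the adjusted p was 0.0522. In the other direction, the limma adjusted p was 0.00427 with the experiment as a replicate block and 0.00418 without PIM-Pd replicate 2. E2F2 was lower with PIM-Pd than in the control of the same experiment in 3 of 3 experiments. Pd alone gave -0.42 (limma adjusted p = 0.439) and PIM alone -0.14 (limma adjusted p = 0.959).

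E2F3, the third activator, was not called. Its values were 5.49, 5.78 and 5.51 in control, 5.57, 5.27 and 5.23 with PIM, 6.13, 5.74 and 5.96 with Pd, and 6.15, 5.34 and 6.12 with PIM-Pd. In experiments 1 and 3 it stood above its control with Pd and PIM-Pd, and in experiment 2 below it. Differences from control were 0.35 with Pd (limma adjusted p = 0.395) and 0.28 with PIM-Pd (95% confidence interval -0.13 to 0.69, limma adjusted p = 0.487). Without PIM-Pd replicate 2, the array at 5.34, the PIM-Pd difference was 0.54 with a limma adjusted p of 0.0419, whereas it was 0.14 without PIM-Pd replicate 1 (adjusted p = 0.813) and 0.15 without PIM-Pd replicate 3 (adjusted p = 0.798).

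**Figure D2:**
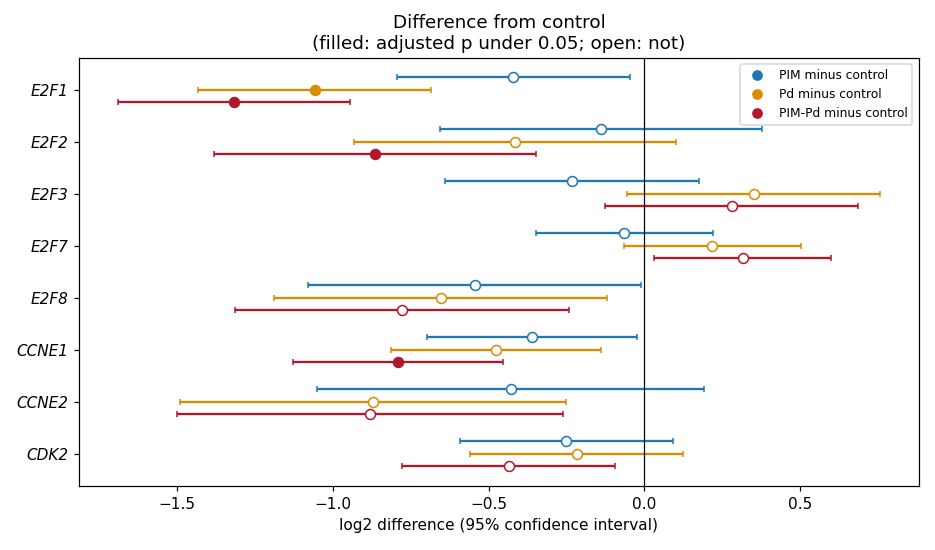
Log2 difference from control (horizontal axis) of each gene for PIM, Pd and PIM-Pd, with limma's 95% confidence interval; filled points had an adjusted p under 0.05 and open points did not. E2F1 has filled points at -1.06 with Pd and -1.32 with PIM-Pd, E2F2 and CCNE1 are filled with PIM-Pd alone at -0.87 and -0.79, and the E2F3 and E2F7 points for Pd and PIM-Pd lie above zero.

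With Pd and PIM-Pd, the atypical repressors E2F7 and E2F8 lay on opposite sides of the control arrays, with no call for either. E2F7 stood at 7.66, 7.91 and 7.90 in control, 7.82, 7.49 and 7.96 with PIM, 7.97, 8.09 and 8.06 with Pd, and 7.97, 8.20 and 8.25 with PIM-Pd. Its Pd and PIM-Pd arrays all lay above the control arrays, and each was above the control of its own experiment, by 0.29 to 0.35 in the case of PIM-Pd. The mean difference with PIM-Pd was 0.32 (95% confidence interval 0.032 to 0.60), but the adjusted p was 0.183 by limma, and for Pd the difference was 0.22 with an adjusted p of 0.473. E2F7 was the steadiest of the 8 genes, with a residual SD of 0.161 beside a median of 0.170 over all rows.

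E2F8 stood at 7.83, 7.64 and 7.87 in control, 7.30, 6.75 and 7.66 with PIM, 6.77, 7.21 and 7.40 with Pd, and 6.64, 7.60 and 6.77 with PIM-Pd. All Pd and PIM-Pd arrays lay below the control arrays, though PIM-Pd replicate 2 differed by only -0.048 from the control of its experiment. The difference with PIM-Pd was -0.78 (SE 0.251, limma adjusted p = 0.0689), that with Pd -0.65 (limma adjusted p = 0.175) and that with PIM -0.55 (limma adjusted p = 0.795). None of these was called. Without PIM-Pd replicate 2 the PIM-Pd difference was -1.08 and was called (limma adjusted p = 0.00943), and without PIM-Pd replicate 1 it was -0.60 (limma adjusted p = 0.238). The full difference of -0.78 crossed the threshold with a trended robust variance (adjusted p = 0.0418) or with rows of low mean value left out (adjusted p = 0.0494). The residual SD of E2F8 exceeded that of 98.7% of the rows.

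CCNE1, the cyclin that E2F activators switch on to drive CDK2, fell with PIM-Pd. Values were 7.22, 7.74 and 7.46 in control, 7.10, 7.13 and 7.11 with PIM, 7.002, 7.12 and 6.86 with Pd, and 6.33, 6.80 and 6.92 with PIM-Pd. No array of any treatment reached the lowest control array. The PIM-Pd group was lower by 0.79 on average (log2 difference -0.79, SE 0.158, limma adjusted p = 0.00507, 1.73-fold), with same-experiment differences of -0.89, -0.94 and -0.55. The differences with Pd, -0.48 (limma adjusted p = 0.107), and with PIM, -0.36 (limma adjusted p = 0.788), were not called. The call with PIM-Pd held whichever array of the pair of groups was left out, with differences between -0.92 and -0.61.

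CCNE2, the second cyclin E, stood at 5.73, 5.73 and 5.88 in control, 5.48, 5.31 and 5.26 with PIM, 4.62, 5.22 and 4.89 with Pd, and 3.92, 5.42 and 5.35 with PIM-Pd. All treated arrays lay below all control arrays. The mean difference was -0.87 with Pd (limma adjusted p = 0.109) and -0.88 with PIM-Pd (SE 0.290, limma adjusted p = 0.0754), and neither was called. With the experiment as a replicate block the PIM-Pd difference was called (adjusted p = 0.045). It leaned on PIM-Pd replicate 1, the array at 3.92, without which it was -0.39 (limma adjusted p = 0.176). In the other direction, it was -1.14 without PIM-Pd replicate 2 (limma adjusted p = 0.0286) and -1.11 without PIM-Pd replicate 3 (limma adjusted p = 0.0443). The full difference was also called with a trended robust variance (adjusted p = 0.0497). The CCNE2 means of 4.91 with Pd and 4.90 with PIM-Pd lay near the array medians, and no detection call was used. CCNE2 had the widest residual spread of the 8 genes, an SD of 0.457 that exceeded that of 99.6% of the rows.

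CDK2, the kinase that both E cyclins activate, is regulated mainly by its partners and by phosphorylation rather than by its own level. It stood at 8.28, 8.26 and 8.34 in control, 8.06, 8.13 and 7.95 with PIM, 7.91, 8.27 and 8.06 with Pd, and 7.42, 8.10 and 8.06 with PIM-Pd. The PIM and PIM-Pd arrays all lay below the control arrays, while Pd replicate 2 lay among them. No difference was called, with -0.25 for PIM (limma adjusted p = 0.845), -0.22 for Pd (limma adjusted p = 0.587) and -0.44 for PIM-Pd (SE 0.160, limma adjusted p = 0.116). Again the low array was PIM-Pd replicate 1, and the PIM-Pd difference without it was -0.21.

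The PIM comparison called no row in the table, although 1098 of 17710 rows, 6.20%, had an unadjusted p below 0.05, and the trended robust variance also called 0. All 8 genes had a mean below control with PIM, where 47.4% of all rows did. E2F1, E2F8 and CCNE1 were among the rows with an unadjusted p below 0.05, at 0.03, 0.0465 and 0.0382. The 8 means lay between 0.065 and 0.55 below control on the log2 scale, with E2F8 the farthest and E2F7 the nearest. E2F8 was at -0.30 without PIM replicate 2, and CCNE1 at -0.23 without Control replicate 2.

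Adding PIM447 to Pd is read from PIM-Pd against Pd, with the shorter exposure in the triple combination. Of the 8 genes, 0 were called, and 0.0791% of all rows were. An unadjusted p below 0.05 by limma was found for 0 of the 8 and for 8.57% of all rows. E2F2 differed by -0.45 (95% confidence interval -0.97 to 0.066, limma adjusted p = 0.631), which became -0.18 without PIM-Pd replicate 3, -0.25 without Pd replicate 2 and -0.75 without PIM-Pd replicate 2. CCNE1 differed by -0.31 (95% confidence interval -0.65 to 0.024, limma adjusted p = 0.611), and by -0.14 without PIM-Pd replicate 1. E2F1 differed by -0.26 (95% confidence interval -0.63 to 0.11), lower in 3 of 3 experiments. CCNE2 averaged 4.90 with PIM-Pd and 4.91 with Pd, with an interval of the difference from -0.63 to 0.61.

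Adding Pd to PIM447 is read from PIM-Pd against PIM, where 5.66% of all rows were called. Here E2F1 fell by 0.90 (SE 0.175, limma adjusted p = 0.0067, 1.86-fold), lower in 3 of 3 experiments, and it was the 1 gene of the 8 that passed. E2F2 differed by -0.73, with a limma adjusted p of 0.104, and was called with the experiment as a replicate block (adjusted p = 0.0174). CCNE1 differed by -0.43 with no overlap between the groups (limma adjusted p = 0.147). E2F7 and E2F3 stood higher in 3 of 3 experiments, by 0.38 (limma adjusted p = 0.122) and 0.51 (limma adjusted p = 0.155). With PIM-Pd replicate 2 left out, E2F2 at -1.02 and E2F3 at 0.78 were called as well (limma adjusted p = 0.014 and 0.00946). Without PIM-Pd replicate 3, E2F2 was at -0.45 (limma adjusted p = 0.376) and E2F3 at 0.39 (limma adjusted p = 0.426), and without PIM-Pd replicate 1 E2F3 was at 0.37. CCNE1 was at -0.25 without PIM-Pd replicate 1, and E2F7 at 0.25 without PIM replicate 2.

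Whether the triple combination departed from the sum of the separate treatments was tested as the PIM447 difference with Pd minus that without it. Exposure lasted 24 h for PIM, 15 h for Pd and 10 h for PIM-Pd, so drug and time cannot be told apart in this contrast. Of the 8 genes 0 were called, and 0.0169% of all rows were. An unadjusted p below 0.05 by limma was found for 0 of the 8 and for 5.83% of all rows. For E2F1 the separate differences summed to -1.48, beside -1.32 measured, a departure of 0.16 (95% confidence interval -0.37 to 0.69, limma adjusted p = 0.981). For CCNE1 the sum was -0.84 beside -0.79 measured, and for CDK2 -0.47 beside -0.44. The departures farthest from zero were those of E2F8, 0.42 (95% confidence interval -0.34 to 1.18), and CCNE2, 0.42 (95% confidence interval -0.46 to 1.30), and E2F2 alone had one below zero, -0.31. The intervals of all 8 departures include zero.

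**Figure D3:**
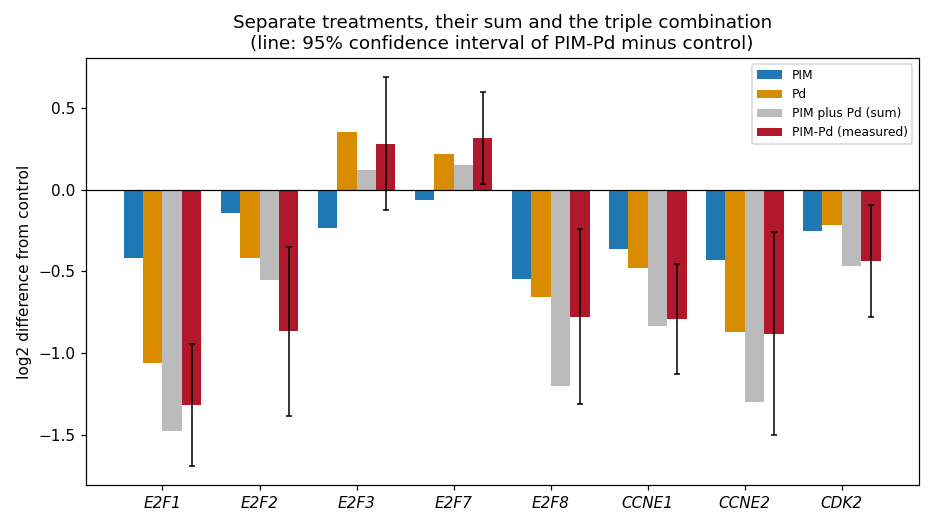
Mean log2 difference from control (vertical axis) for PIM, Pd, their sum and the measured PIM-Pd difference, for each gene; the line on the PIM-Pd bar is its 95% confidence interval from limma. The sum lies inside the interval for all genes shown, as for E2F1 at -1.48 beside a measured -1.32 and for CCNE1 at -0.84 beside -0.79. That interval leaves out the error of the sum, so a sum inside it is no test of additivity, and the exposure times differed.

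Other genes of the pathway could be read only in part. Symbols were at hand for 1909 of the rows, those that the study itself had listed as changed in these samples, so the genes below were selected for change and their counts are no independent evidence of it. Of 50 G1/S targets of E2F on a list of replication and S-phase genes, 21 could be named. With PIM-Pd, 18 of these were called lower, 0 higher and 3 not called; with Pd, 11 were lower and 10 not called; with PIM, 0 were called. Among all 1909 rows with a symbol, 671 were called lower and 671 higher with PIM-Pd, and 306 lower and 596 higher with Pd. The largest decreases with PIM-Pd were those of MCM6, a subunit of the replicative helicase, which fell by 1.15, CDC6, which loads that helicase, by 1.13, UNG, which removes uracil from DNA, by 1.09, and UHRF1, which maintains DNA methylation, by 1.02. Each of these 4 also fell with Pd, with CDC6 at -1.01 and MCM6 at -0.85. TK1, a thymidine kinase singled out after its values were seen, was the 1 target above zero with PIM-Pd, at 0.43 (limma adjusted p = 0.138).

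**Figure D4:**
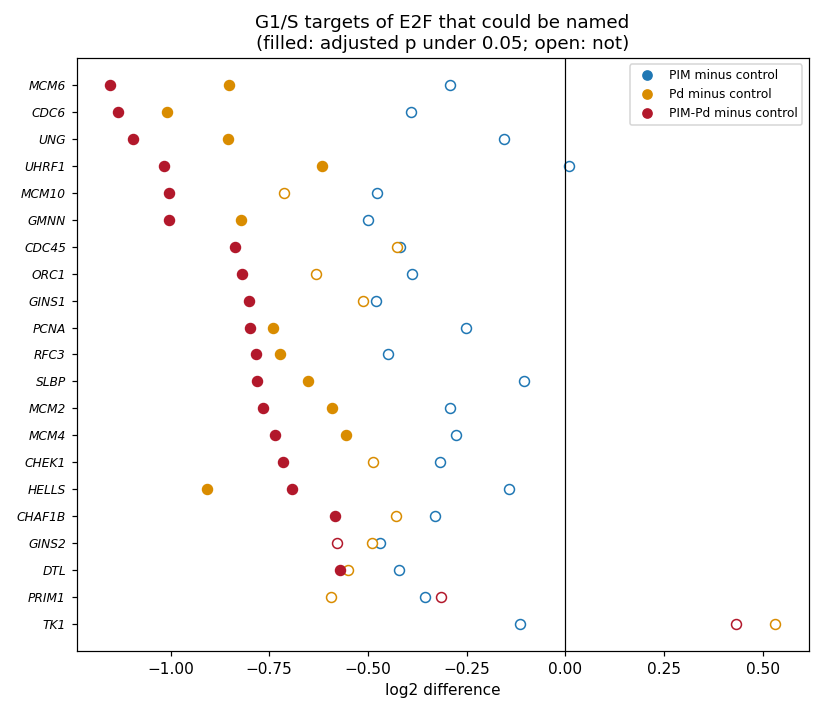
Log2 difference from control (horizontal axis) of the 21 G1/S targets that could be named, for PIM, Pd and PIM-Pd; filled points had a limma adjusted p under 0.05. These genes were selected for change by the study. With PIM-Pd, 18 points are filled, from MCM6 at -1.15 to DTL at -0.57, and TK1 stands apart at 0.43.

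TFDP1, the dimer partner that E2F1, E2F2 and E2F3 need to bind DNA, fell by 0.87 with PIM-Pd (limma adjusted p = 0.0104) and was at -0.49 with Pd (limma adjusted p = 0.193). It was the 1 named gene of 5 other family members and partners, and none of the 8 pocket protein and DREAM genes, RB1 among them, could be named. Of 21 partners and regulators of CDK2, 4 could be named. CDC25A, the phosphatase that removes the inhibitory phosphates from CDK2, fell by 1.01 with PIM-Pd (limma adjusted p = 0.00709), and CUL1, the scaffold of the ubiquitin ligase that degrades cyclin E and p27, fell by 0.64. CDKN1A, which encodes the CDK2 inhibitor p21, rose by 0.63 with PIM-Pd (limma adjusted p = 0.014) and by 0.56 with Pd (limma adjusted p = 0.0393), while with PIM it was at -0.59 (limma adjusted p = 0.666). The fourth, CDC25C, a phosphatase that acts at entry into mitosis, was at 0.42 with PIM-Pd (limma adjusted p = 0.237) and 0.58 with Pd (limma adjusted p = 0.111), higher than control in 3 of 3 experiments for both. It was named after its values were seen. The rows of CCNA2, CDKN1B, SKP2 and FBXW7 could not be named.

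Upstream of the retinoblastoma protein, 5 of 8 listed genes could be named. With PIM-Pd, CCND2 (cyclin D2) fell by 1.07, MYC, a transcription factor that promotes cell growth, by 0.85, CDK4 by 0.65 and CCND1 (cyclin D1) by 0.62, with limma adjusted p from 4.58e-05 to 0.0172. CCND1 averaged only 5.09 in control and 4.47 with PIM-Pd, near the array medians of 4.81 to 4.89. No detection call was used, so its difference may lie at background level. CCND3 (cyclin D3) was at 0.48 with PIM-Pd (limma adjusted p = 0.0511) and rose by 0.65 with Pd (limma adjusted p = 0.0151). CCND1, at -0.70 (limma adjusted p = 0.0135), and CCND2, at -0.47 (limma adjusted p = 0.0228), were called lower with Pd. MYC, at -0.44 (limma adjusted p = 0.109), and CDK4, at -0.36 (limma adjusted p = 0.0717), were not called with Pd. PIM called none of the 5.

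The rows most like each called gene were sought among the rows with a symbol, by the root mean square difference between their 12 log2 deviations from the control mean. Nearest to E2F1 were IRF4, a plasma cell transcription factor, at 0.190, FASN, the fatty acid synthase, at 0.215, and SLC7A5, an amino acid transporter, at 0.223. For CCNE1 they were SNRNP25 at 0.142, AP3M2 at 0.150 and MCM4, a helicase subunit and E2F target, at 0.153. E2F2 had no neighbour closer than DDX11, a DNA helicase, at 0.226, followed by TRAP1 at 0.230 and ATAD3B at 0.233. These distances describe 12 arrays in 4 groups and were not tested.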

How the data were processed

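RNA of MM.1S cells was hybridised by the authors to Affymetrix Clariom S human arrays, 12 in all. The deposited values are on the log2 scale, 1 row per Ensembl gene, made by the authors with RMA (oligo 1.44.0 in R 3.5.0) and a custom BrainArray gene definition; replicates were not pooled, and no detection call was used here. Groups came from the treatment labels. The table was fitted with limma 3.58.1 in R 4.3.3, with 1 mean per group, 8 residual degrees of freedom, two-sided tests, no filter and Benjamini-Hochberg adjustment over all 17710 rows in each comparison; the code was tested on simulated data. The number of arrays limits the precision.

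The labels number the experiments as pairs, so the number was added as a replicate block in an alternative. Deviations of same-numbered arrays from their group means correlated between -0.101 and 0.303 (median 0.0965, 18 pairs), above 0.1 in 9 pairs. Other alternatives were single arrays left out, a filter on low rows, 2 rescalings, a trended robust variance, only the arrays compared, a 2-fold limit and array weights. Labels and methods name different RNA kits.

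Named genes were the 8 members, up to 4 called genes with the largest PIM-Pd difference per list, a fixed set of regulators, and the 3 nearest rows. Symbols of other rows came from identifier columns of the study's supplement; the fold changes and q-values beside them were not used. Members and lists were chosen with earlier results of these data known. Promoter windows came from RefSeq tables.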

Additional observations from a re-analysis of the deposited data

How the results depend on the processing

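Of 672 recomputed values for single genes, 630 kept their direction and their side of the threshold, 16 crossed into a call, 6 lost one and 20 changed sign. None of the sign changes concerned a called difference. The numbers of called genes with PIM (0), with PIM-Pd against Pd (0) and for the departure from additivity (0) stayed the same under every alternative. With Pd against control, 3 genes in place of 1 were called when only the arrays compared were fitted (E2F1, E2F8 and CCNE2) or with array weights, an alternative added after the data were seen (E2F1, CCNE1 and CCNE2). With PIM-Pd against control, 5 in place of 3 were called with a trended robust variance, 1 at a change of at least 2-fold, and between 2 and 6 with an array left out, the highest without PIM-Pd replicate 2. For PIM-Pd against PIM, the replicate block called 2 in place of 1, the 2-fold limit 0, and leaving out arrays between 1 and 3. For Pd against PIM the block called 1 in place of 0. Over all rows the block called 1181 with Pd, 1934 with PIM-Pd, 1262 for PIM-Pd against PIM and 761 for Pd against PIM. Without the block these were 960, 1671, 1003 and 601. Only the arrays compared called 1328 rows with Pd, and the trended robust variance called 1675 with PIM-Pd. Among the 8 genes, the block changed no other call than those given for CCNE2, E2F2 and E2F1. Beyond the 8 it made further calls in both directions. With PIM-Pd, TK1 was then called higher (limma adjusted p = 0.021) and GINS2 lower (limma adjusted p = 0.0365). With Pd, CDC25C (limma adjusted p = 0.0367) and TK1 (limma adjusted p = 0.0105) were called higher. MCM10, ORC1, DTL, CDC25A, MYC and CDK4 were called lower with Pd, with limma adjusted p from 0.0188 to 0.0475. The array weights turned CCNE2 in PIM-Pd against Pd to 0.13. With 1 array left out, differences that changed sign ranged, for PIM-Pd against Pd, from -0.21 to 0.19 (E2F3), -0.42 to 0.055 (E2F8), -0.27 to 0.48 (CCNE2) and -0.34 to 0.0033 (CDK2); for PIM-Pd against PIM, from -0.71 to 0.038 (CCNE2) and -0.31 to 0.036 (CDK2); for PIM against control, from -0.17 to 0.069 (E2F7); and for the departure from additivity, from -0.061 to 0.28 (E2F1), -0.087 to 0.22 (CCNE1) and -0.088 to 0.25 (CDK2). The cause of these changes was not tested. Over all rows, the 2-fold limit called 191 rows with Pd, 255 with PIM-Pd and 173 for PIM-Pd against PIM, array weights called 1516 with Pd, only the arrays compared called 455 for PIM-Pd against PIM, and with 1 array left out between 497 and 720 were called with Pd, 1096 and 1435 with PIM-Pd and 648 and 901 for PIM-Pd against PIM, beside 960, 1671 and 1003. For PIM-Pd against Pd, 14 rows became 26 with the trended robust variance, 8 after a second quantile normalization, 1 with only the arrays compared or the 2-fold limit, and between 2 and 15 with 1 array left out, and the 3 rows called for additivity became 2 with the block and between 0 and 3 with 1 array left out. Neither rescaling moved the median of all rows by over 0.1 or turned a direction.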
